A study of Mus musculus with 2 samples.

Results

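The SOX genes encode transcription factors that share a DNA-binding HMG box, and 10 of them, of 21755 protein-coding genes on chromosomes 1 to 19 and X, were examined by name in open chromatin of the embryonic mouse heart. They were Sox1 and Sox2 of the SoxB1 group, Sox4 and Sox11 of SoxC, Sox8, Sox9 and Sox10 of SoxE, and Sox7, Sox17 and Sox18 of SoxF. The chromatin came from wildtype hearts of FVB embryos at E11.5, with a pair of hearts in each of 2 biological replicates and no second genotype, stage or tissue. ATAC-seq, which uses Tn5 transposase to cut DNA that is not wrapped tightly in nucleosomes, was run on each replicate, and the values are the peaks called in each with MACS2. Because 1 group was profiled, there is no contrast to test, and the values are described in both replicates beside those of all protein-coding genes.

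SOX factors bind short ATTGT-like motifs in the minor groove, bend the DNA and often act with a partner factor. SoxB1 factors maintain neural progenitors, and Sox2 also sustains pluripotency. SoxC factors act in many progenitor cells, and mice without Sox4 or Sox11 have outflow tract defects. Among SoxE genes, Sox9 acts in cartilage and in the mesenchyme of the endocardial cushions, from which valves form, and Sox10 marks neural crest cells and their glial and melanocyte derivatives. SoxF genes are genes of the endothelium and, in the heart, of the endocardium. Since whole hearts were used, a weak peak from all cells and a strong peak from few cells cannot be told apart.

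A region was called shared where a replicate 1 peak was covered by a replicate 2 peak, by at least 1 bp, and 98924 such regions were found. Replicate 1 listed 118027 peaks and replicate 2 listed 114783, with no peak below 9 reads at its summit in either. A start was any annotated transcript start in GENCODE M21 with 1 kb on each side, and a locus was the gene body with 100 kb on each side. Shared regions over 1 kb from every protein-coding start were called distal. Fold enrichment is the read pileup at the peak summit over the genome-wide background pileup of that replicate, with 1 read added to both, as MACS2 gives it.

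Markers of the cell types of the heart were read at their starts in the same way, and their counts are to be read beside the 68.1% of all protein-coding genes that had a shared region at a start. Start regions were found at 6 of 6 cardiomyocyte genes, 6 of 6 genes of endothelium and endocardium, 5 of 5 of cushion mesenchyme, 4 of 4 of epicardium and 4 of 4 of red blood cells. Of the genes of neural crest and Schwann cell precursors read here, Erbb3 had a start region and Foxd3 had none. Of genes that mark tissues outside the heart, 3 of 5 neural tube genes (Olig2, Pax6 and Nkx2-2) and 1 of 3 skeletal muscle genes (Myod1, mean fold enrichment 5.21) also had a start region.

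Sequences are shown first for the promoters that the results turn on. RefSeq promoter entries (GRCm38.p6) matched 5 of the 10 members, Sox1, Sox2, Sox4, Sox11 and Sox8 (unmatched were Sox7, Sox9, Sox10, Sox17 and Sox18). Each entry runs from 250 bases before the RefSeq start to 50 after it, and all 300 bases of each of the 5 lay inside the shared region at that gene. Printed here are the stretches before the RefSeq start and before any annotated exon of the gene, written 5′ to 3′ on the strand of the gene, with CpG dinucleotides in capitals. Sox4 and Sox11 are shown because they had the highest start values of the 10, and Sox2 and Sox8 because they came next.
Sox4 (chr13:28953714-28953949, minus strand): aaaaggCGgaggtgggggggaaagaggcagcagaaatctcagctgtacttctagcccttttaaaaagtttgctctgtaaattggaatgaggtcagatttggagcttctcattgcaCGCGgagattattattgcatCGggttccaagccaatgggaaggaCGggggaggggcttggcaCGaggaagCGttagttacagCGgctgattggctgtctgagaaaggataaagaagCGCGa
Sox11 (chr12:27342719-27342968, minus strand): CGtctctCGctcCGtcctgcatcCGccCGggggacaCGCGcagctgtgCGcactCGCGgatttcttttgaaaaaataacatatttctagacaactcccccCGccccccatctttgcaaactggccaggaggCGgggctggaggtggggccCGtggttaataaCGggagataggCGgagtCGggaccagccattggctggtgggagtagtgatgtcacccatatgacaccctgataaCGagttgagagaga
Sox8 (chr17:25570687-25570936, minus strand): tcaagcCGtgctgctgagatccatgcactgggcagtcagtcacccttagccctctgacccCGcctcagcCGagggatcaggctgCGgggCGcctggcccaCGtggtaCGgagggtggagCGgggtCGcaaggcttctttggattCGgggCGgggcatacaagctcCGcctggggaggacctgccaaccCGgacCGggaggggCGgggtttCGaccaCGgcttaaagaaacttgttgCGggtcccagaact
Sox2 (chr3:34649745-34649994, plus strand): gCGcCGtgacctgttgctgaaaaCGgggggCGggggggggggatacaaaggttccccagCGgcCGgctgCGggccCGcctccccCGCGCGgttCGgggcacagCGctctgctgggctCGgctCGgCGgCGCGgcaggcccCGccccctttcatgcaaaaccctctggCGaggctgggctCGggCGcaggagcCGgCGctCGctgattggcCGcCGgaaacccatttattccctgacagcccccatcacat
The full 300 bases held 12 CpG dinucleotides at Sox4, 21 at Sox11, 21 at Sox8, 27 at Sox2 and 37 at Sox1, against a median of 7 over all 32851 promoters of the table. Among these 5, the CpG count ran opposite to the order of fold enrichment at the start, with Sox11 and Sox8 tied, as a description over 5 genes. With 100 bases on each side of the replicate 1 start summits the order was not the same, with 12 CpG at both Sox4 and Sox2, 14 at Sox11, 15 at Sox8 and 21 at Sox1. In these windows Sox9 had the fewest of the 9 genes with a start region, 10, and Sox18 had the most, 23. Among the 5 promoters of 300 bases only, Sox4, with the highest fold enrichment at its start, had the fewest CpG, at the 61.2nd percentile of all promoters. Among the same 5, Sox1, with the lowest fold enrichment, had the most, at the 94.7th percentile.

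A second set of sequences is the core of the strongest distal regions, written on the plus strand with 100 bases on each side of the replicate 1 summit, and with letters matching any of the searched motifs in capitals. Motifs were searched on either strand. The SOX motif was taken as ACAAT, with the longer form ACAAAG as an equal choice. For GATA factors, which drive cardiac and blood genes, the letters were AGATAA, and a first base of T in place of A was also accepted. The ETS motif, bound by many endothelial factors, was AGGAAG. The TEAD motif of the Hippo pathway was GGAATG. The T-box motif, bound by Tbx5 and its relatives, was AGGTGT. The A and T rich core of MEF2 and the CTCF core consensus, given by name, completed the set. The Sox17, Sox4, Sox18, Sox7 and Sox9 windows are shown because these genes had the 5 highest values when the highest distal region of each locus was taken, that of Sox2 because it was the strongest around a SoxB1 gene, and that of Sox10 because that locus had distal regions but none at the gene.
Sox17, 74.5 kb upstream (chr1:4571723-4571923): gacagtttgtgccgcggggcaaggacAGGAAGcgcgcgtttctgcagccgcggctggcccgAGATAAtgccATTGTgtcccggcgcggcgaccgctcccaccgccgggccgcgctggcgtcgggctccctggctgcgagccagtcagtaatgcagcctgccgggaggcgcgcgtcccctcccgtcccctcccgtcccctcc
Sox4, 4.91 kb upstream (chr13:28958520-28958720): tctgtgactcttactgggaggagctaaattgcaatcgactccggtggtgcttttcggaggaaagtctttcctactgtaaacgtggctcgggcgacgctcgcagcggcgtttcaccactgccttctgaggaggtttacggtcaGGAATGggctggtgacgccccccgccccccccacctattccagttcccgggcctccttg
Sox18, 7.36 kb upstream (chr2:181678901-181679101): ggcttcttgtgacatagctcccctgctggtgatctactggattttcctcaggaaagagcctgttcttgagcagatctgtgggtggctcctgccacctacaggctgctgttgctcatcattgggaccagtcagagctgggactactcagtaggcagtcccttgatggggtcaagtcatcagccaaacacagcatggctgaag
Sox7, 74.8 kb upstream (chr14:63868742-63868942): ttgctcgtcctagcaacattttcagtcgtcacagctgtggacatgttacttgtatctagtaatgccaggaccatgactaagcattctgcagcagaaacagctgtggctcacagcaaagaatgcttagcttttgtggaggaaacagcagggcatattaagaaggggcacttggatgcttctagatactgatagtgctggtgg
Sox9, 68.5 kb downstream (chr11:112850642-112850842): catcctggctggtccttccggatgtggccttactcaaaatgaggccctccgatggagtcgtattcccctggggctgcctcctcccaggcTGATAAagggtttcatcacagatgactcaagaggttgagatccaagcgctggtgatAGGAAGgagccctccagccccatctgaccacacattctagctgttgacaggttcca
Sox2, 13.9 kb downstream (chr3:34664192-34664392): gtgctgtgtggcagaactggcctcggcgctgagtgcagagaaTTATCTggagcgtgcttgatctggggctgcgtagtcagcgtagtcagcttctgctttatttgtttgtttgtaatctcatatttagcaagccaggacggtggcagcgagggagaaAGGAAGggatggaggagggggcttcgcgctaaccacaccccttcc
Sox10, 67.4 kb downstream (chr15:79097763-79097963): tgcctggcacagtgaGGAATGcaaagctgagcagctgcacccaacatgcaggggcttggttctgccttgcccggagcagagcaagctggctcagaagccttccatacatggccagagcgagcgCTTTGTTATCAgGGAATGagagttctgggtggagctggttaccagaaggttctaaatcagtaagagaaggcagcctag
The Sox17 window held an ETS motif, a GATA motif and, 4 bases after the latter, a SOX motif on the minus strand. In the Sox10 window, a SOX motif on the minus strand ran into a GATA motif on the same strand and shared a letter with it, and the TEAD motif occurred 2 times. The Sox9 and Sox2 windows each held a GATA and an ETS motif, and the Sox4 window held a TEAD motif. The Sox18 and Sox7 windows held none of the searched motifs. The windows also differed in base composition. That of Sox17 was 73.1% G or C with 26 CpG, above the upper quartile of 21 CpG for regions at protein-coding starts, and that of Sox4 was 59.2% G or C with 14 CpG. A median of 3 CpG was found over all 78019 distal regions placed on these chromosomes.

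Of the 10 SOX genes, 9 had a shared region at a start, all but Sox10. Among all protein-coding genes 14820 did, which is 68.1%, so the count of 9 is not far above what a list of 10 genes would hold at that share. The 9 genes were open at their starts to very different degrees, from a mean fold enrichment of 24.3 at Sox4 to 6.91 at Sox1. All 9 lay below the median of 24.5 over the 14820 genes with a start region, taken at the highest start region of each gene, and 6 of the 9 lay below the lower quartile of 14.2.

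**Figure D1:**
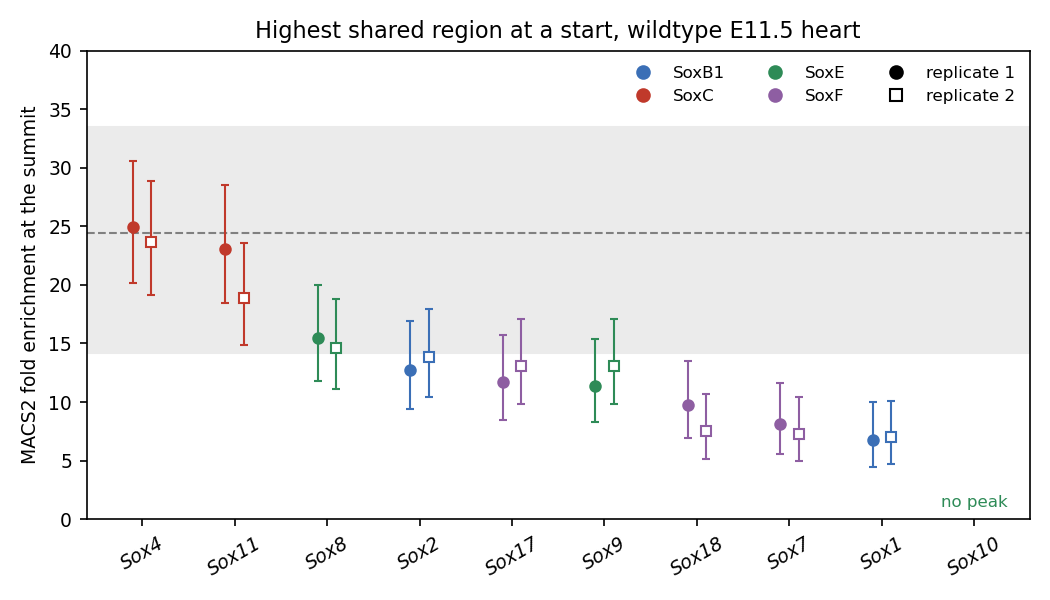
Fold enrichment at the highest shared region within 1 kb of a start of each SOX gene, in replicate 1 (filled circles) and replicate 2 (open squares), with exact Poisson 95% intervals of the summit pileup as bars. The dashed line and grey band are the median (24.5) and quartiles (14.2 to 33.5) over 14820 protein-coding genes, and Sox4 and Sox11 are the only 2 of the 10 genes whose values in both replicates lie above those of all the others.

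The SoxC genes had the most open starts of the 10. At Sox4, on the minus strand of chromosome 13, the start region (chr13:28951881-28954108) reached fold enrichment 25.0 in replicate 1 and 23.6 in replicate 2, from pileups of 91 reads (exact Poisson 95% interval 73.3 to 112) and 93 reads (75.1 to 114). Its summits lay 28 bp and 74 bp upstream of the single annotated start at position 28953713. At Sox11, on the minus strand of chromosome 12, the region (chr12:27341134-27343941) reached 23.1 and 18.9, with summits upstream of the start at position 27342574, by 170 bp and 339 bp. The lowest of these 4 values, 18.9, was above the highest value of the other 8 genes, 15.5 at Sox8, and the mean of Sox11 was 1.40 times that of Sox8. Whether this step between the means can be separated depends on the measure of spread, as given below.

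Of the SoxE genes, Sox8 and Sox9 had a start region and Sox10 had none. Sox8 had 2 annotated starts on the minus strand of chromosome 17, and 1 region (chr17:25570257-25571412) served both, at 15.5 and 14.6. That region lay over an exon of 2810468N07Rik, an antisense transcript on the plus strand that starts within 1 kb of Sox8, and accessibility cannot be assigned to one or the other. Sox9, on the plus strand of chromosome 11, reached 11.4 and 13.1 (chr11:112781073-112783276), with a summit 50 bp downstream of its start, in the 5′ UTR, in replicate 1 and 23 bp upstream in replicate 2. The start of the noncoding gene BC006965, on the opposite strand, also lay within 1 kb of that of Sox9.

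Sox10, the neural crest gene of the SoxE group, had no peak in either replicate within 1 kb of any of its 4 annotated starts on chromosome 15 (79164474, 79164486, 79164490 and 79165240). The nearest shared region was 22.7 kb away (chr15:79140831-79141748) at the starts of Polr2f, a subunit of RNA polymerase, and 1700088E04Rik, with fold enrichment 22.0 and 20.4. Between that region and the next shared one on the upstream side lay 83.0 kb that held the whole gene. Within it 3 peaks of replicate 1 and 1 of replicate 2 were listed, none above a fold enrichment of 4.89. Of the 32-base words in the 4 start windows, 99.5% to 100% occur once in the genome. Peaks of fewer than 9 reads are not in the lists, so a lower level of opening at Sox10 was not detectable at this depth.

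The SoxF genes all had a start region, each below the lower quartile of all genes in fold enrichment. Sox17 had 8 annotated starts on the minus strand of chromosome 1 and 2 separate start regions. The region over the upstream starts (chr1:4496269-4497897) reached 10.6 and 9.55, and it overlapped Gm37587, a noncoding gene on the other strand. A region further into the gene (chr1:4491663-4493872), at the starts of a shorter protein-coding transcript and of a retained intron, reached 11.7 and 13.1, with both summits in a coding exon 1353 bp and 1324 bp downstream of the nearest start. The internal region was thus the higher of the pair in both replicates. Sox18, on the minus strand of chromosome 2, reached 9.78 and 7.54 (chr2:181670285-181671872), with summits 104 bp and 194 bp downstream of its start. Sox7, on the plus strand of chromosome 14, reached 8.15 and 7.29 (chr14:63943175-63944073), with summits 65 bp and 108 bp upstream.

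The SoxB1 genes were both open. Sox2, on the plus strand of chromosome 3, reached 12.8 and 13.8 (chr3:34648874-34651451). Its summits lay 436 bp and 425 bp upstream of the GENCODE start at position 34650405 but only 26 bp and 15 bp upstream of the RefSeq start. The region lay within Sox2ot, a long noncoding transcript of the same strand in which Sox2 sits. Sox1, on the plus strand of chromosome 8 and within the noncoding Sox1ot, had the lowest start of the 9, with 6.79 and 7.04 (chr8:12395071-12395985) from pileups of 24 reads (15.4 to 35.7) and 27 reads (17.8 to 39.3).

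In the order of mean fold enrichment, Sox4, Sox11, Sox8, Sox2, Sox17, Sox9, Sox18, Sox7 and Sox1, 4 of the 8 neighbouring pairs could be separated. Sox17 is placed there by its internal region (12.4), and the region over its upstream starts had a mean of 10.1. The yardstick was the replicate SD of the log2 ratio, 0.24 over 8645 protein-coding genes whose highest start region lay between 5.53 and 29.2. This range is wider than that of the members, 6.91 to 24.3. For the difference of means of 2 replicates it gives an SD of 0.17, or 1.13-fold. Sox4 from Sox11, Sox11 from Sox8, Sox8 from Sox2, and Sox9 from Sox18 differed by more than that with no overlap of their replicate values. This limit is a single SD, and the Poisson 95% intervals of the pileups overlapped in both replicates for each of these 4 pairs. Sox2, Sox17 and Sox9 could not be separated from one another along the order, nor Sox18 from Sox7 or Sox7 from Sox1. When the spread was taken over every start region instead, fragments of broad peaks included, its SD was 0.81 and 0 of the 8 pairs passed. The steps of the order, that of Sox11 over Sox8 included, therefore rest on how the spread is measured.

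The start regions also differed in length. The start region was over 2 kb long at 5 of the 10 genes, Sox11 (2808 bp), Sox2 (2578 bp), Sox4 (2228 bp), Sox17 (2210 bp) and Sox9 (2204 bp). Among all protein-coding genes 13.1% had a start region of that length, and among those with any start region 19.3%. The limit of 2 kb was set after the lengths had been seen, so the count is a description. The Sox17 length is that of its internal region, and the region over its upstream starts was 1629 bp long. The median of the longest start region per gene was 1371 bp. Sox18 (1588 bp) was above it, and Sox8 (1156 bp), Sox1 (915 bp) and Sox7 (899 bp) were below it. The 2 highest starts, Sox4 and Sox11, were among these 5 long regions, and the 2 lowest, Sox1 and Sox7, were the shortest. Sox2, Sox9 and Sox17 were over 2 kb long yet below the lower quartile in fold enrichment.

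**Figure D2:**
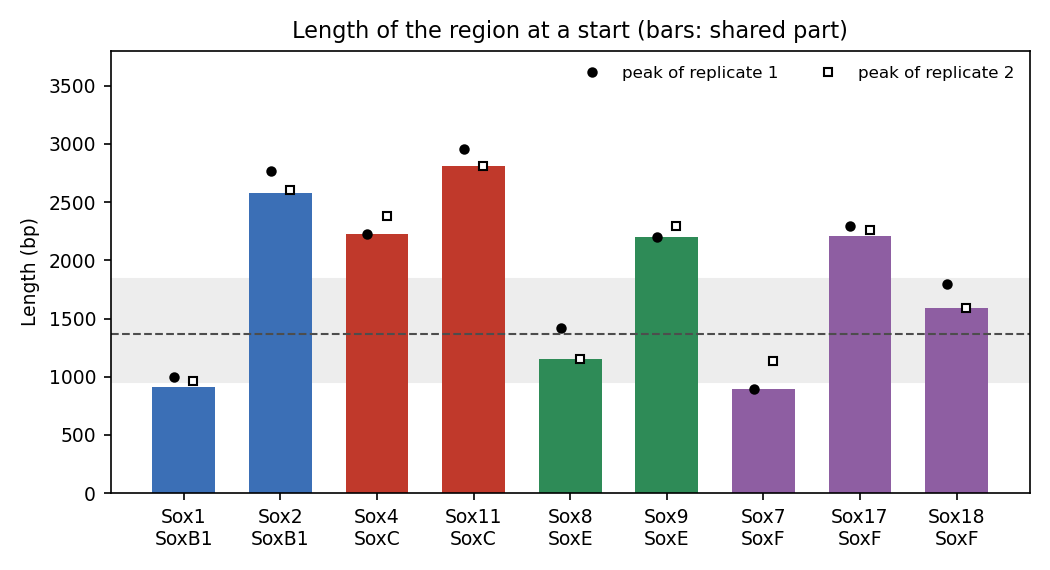
Length of the highest start region of the 9 SOX genes that had one, with bars for the part shared by both replicates, coloured by group, and points for the whole peak in replicate 1 (filled circles) and replicate 2 (open squares). The dashed line and grey band are the median (1371 bp) and quartiles (953 to 1843 bp) of the longest start region over 14820 protein-coding genes, and 5 bars rise above the band.

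The loci of the 10 genes held 137 shared regions, 10 at their own starts, 26 at starts of other protein-coding genes and 101 distal. Of the distal regions 43 lay upstream, 51 downstream and 7 over the gene body. Peaks seen in only 1 replicate were fewer and weak, 31 in replicate 1 and 25 in replicate 2, with highest fold enrichments of 6.52 and 5.03. The median fold enrichment of the 101 distal regions was 5.22, against 5.74 over all 78093 distal regions, and 20 of the 101 were above the upper quartile of all distal regions, 8.20. The distal regions of SOX loci as a set were therefore no more open than distal regions elsewhere, and a few of them stood well above the rest.

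**Figure D3:**
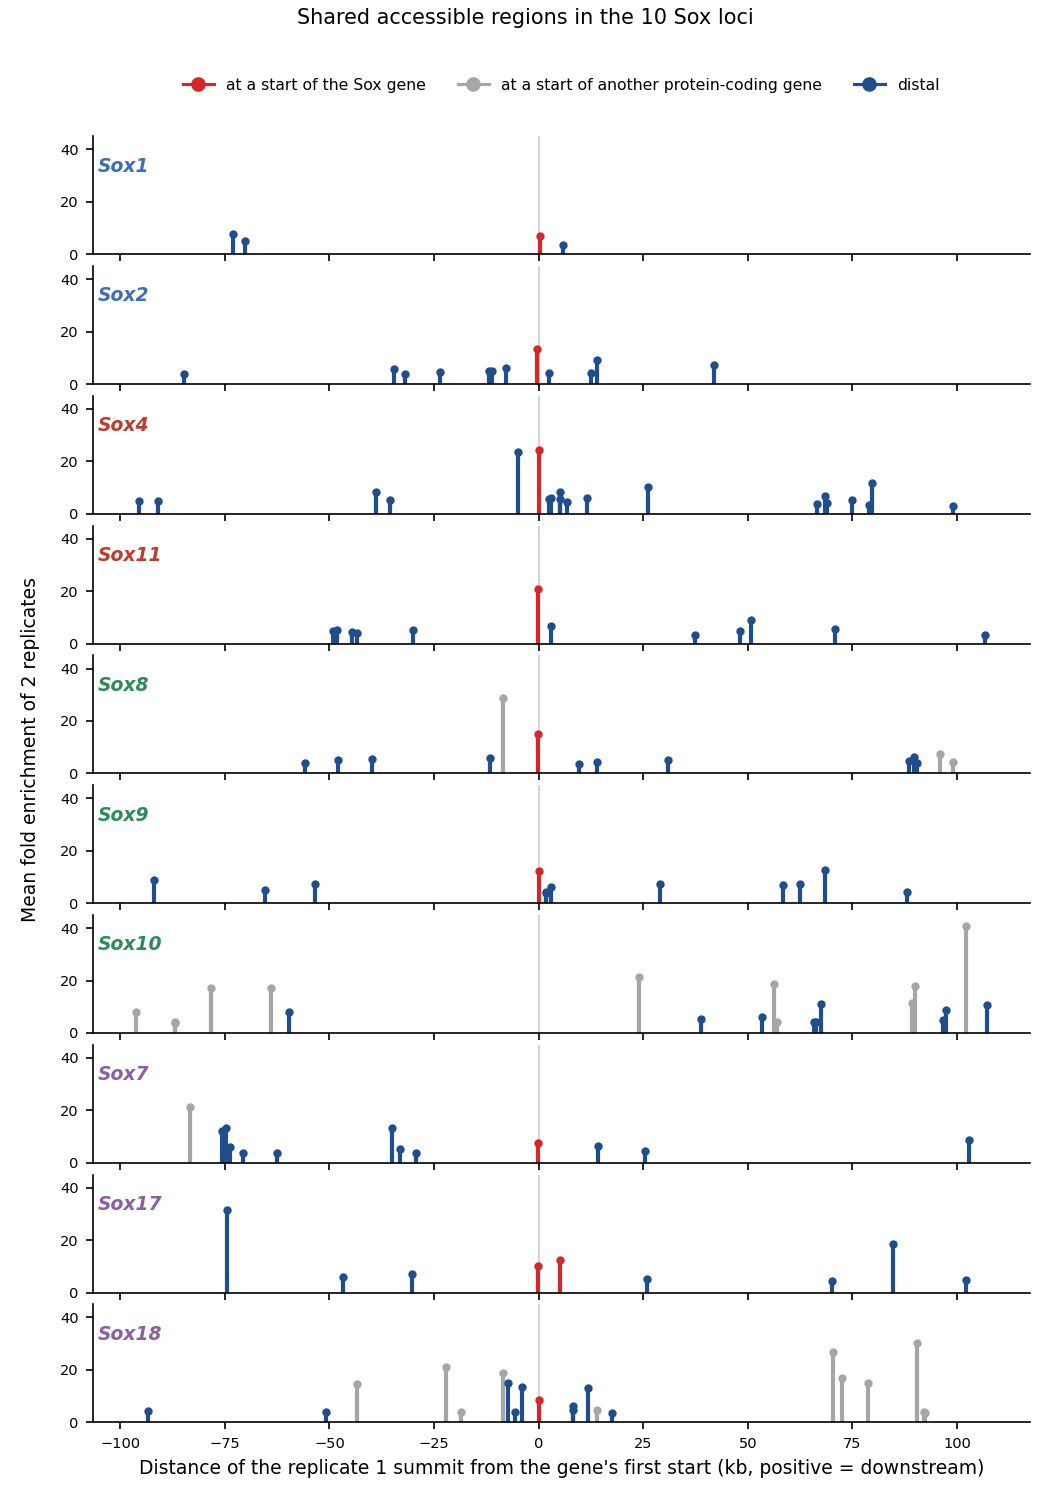
Shared regions of each SOX locus by distance from the first start of the gene in the direction of transcription (kb) and mean fold enrichment of 2 replicates, in red at the gene's own starts, in grey at starts of other protein-coding genes and in blue for distal regions. The tallest blue lines are 74.5 kb upstream of Sox17 (31.6) and 4.91 kb upstream of Sox4 (23.5), and the Sox10 row has no region at distance 0.

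The strongest distal region of any SOX locus was 74.5 kb upstream of Sox17 (chr1:4571268-4572323, 1056 bp), with fold enrichment 32.1 in replicate 1 and 31.2 in replicate 2. It was at the 99.7th percentile of all distal regions, and it lay in no gene of GENCODE, 14.4 kb from the nearest start of any kind, that of Gm37323. Its mean of 31.6 was 2.55 times that of the higher start region of Sox17. A further distal region 84.7 kb downstream (chr1:4412230-4412857), 3.36 kb from a start of Rp1, a photoreceptor gene, reached 18.2 and 18.9. Both of these outer regions were more open than either start region of Sox17, and the other 5 distal regions of the locus were at 7.16 or lower.

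The other SoxF genes showed the same order of distal over start. At Sox18 the highest distal region was 7.36 kb upstream (chr2:181678771-181679249), at 16.8 and 13.3. It lay in no gene but only 1.31 kb from a start of Tcea2, a transcription elongation factor gene. Distal regions 4.03 kb upstream (13.4 on average) and 11.8 kb downstream (13.0) were also above the Sox18 start. The highest region of the locus (30.3) was at the start of Uckl1, a uridine kinase-like gene, 90.4 kb downstream. At Sox7 the highest distal regions were 74.8 kb upstream (chr14:63868544-63869009, at 12.5 and 14.1), 34.9 kb upstream (13.9 and 12.6) and 75.7 kb upstream (12.2 and 11.8). All 3 lay in introns of Pinx1, a neighbouring gene for a telomerase inhibitor, so their position does not tell which gene they belong to. The start of Pinx1 itself held the highest region of the locus (21.4).

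Between the 4 groups, the SoxF genes were thus the ones in which every member had a stronger distal region than start, by 2.55 times at Sox17, 1.74 times at Sox18 and 1.72 times at Sox7, in both replicates. Among the highest distal regions per gene over all protein-coding genes, that of Sox17 was at the 96.1st percentile, that of Sox18 at the 55.6th and that of Sox7 at the 47.6th, while the starts of Sox18 and Sox7 were at the 12.9th and 10.6th percentiles. Outside SoxF the pattern was mixed. Sox1 had a slightly higher distal region in both replicates (8.15 against 6.79, and 7.29 against 7.04), Sox11, Sox8 and Sox2 had the higher value at the start in both, and in Sox4 and Sox9 the order turned between replicates. Among protein-coding genes with regions of both kinds, 29.4% had a distal region above their start, against 5 of the 9 SOX genes by the mean. That share is over genes with starts of any height, whereas all 9 SOX starts were below the median over genes with a start region. With 2 or 3 genes in a group, this difference between groups is not tested.

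**Figure D4:**
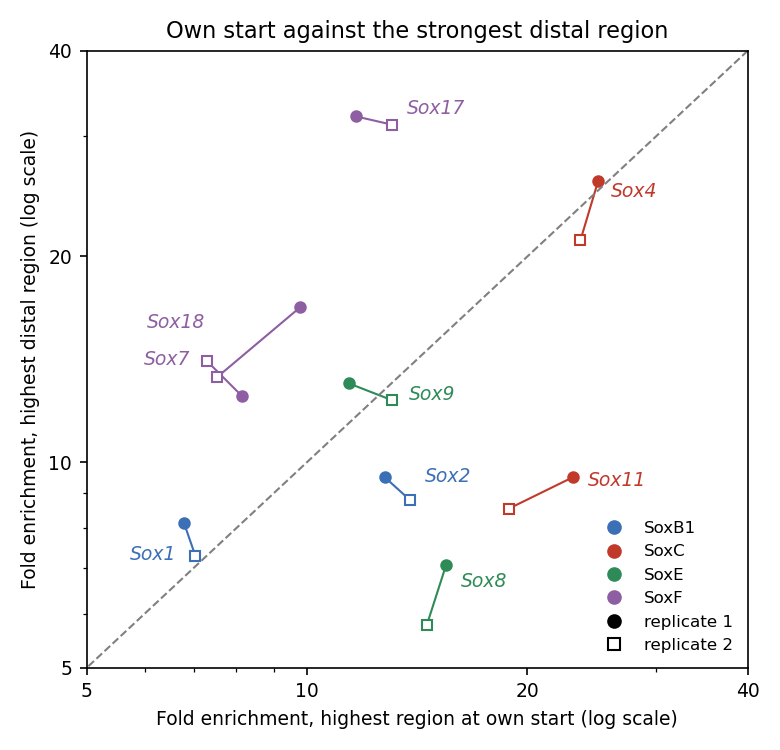
Highest distal region of the locus (vertical axis) against the highest region at the gene's own start (horizontal axis), both as fold enrichment on log scales, for 9 SOX genes in replicate 1 (filled circles) and replicate 2 (open squares) joined by a line. The 3 SoxF genes lie above the dashed line of equality in both replicates, with Sox17 highest at 32.1 and 31.2, and Sox11, Sox8 and Sox2 lie below it.

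Among the loci with no other protein-coding gene, that of Sox4 held the most shared regions, although with peaks at q of at most 1e-10 it held 7 and that of Sox9 held 8. The Sox4 locus held 20 shared regions, 19 of them distal. The distal region 4.91 kb upstream (chr13:28957735-28960082) was 2348 bp long, longer than the start region, and its fold enrichment of 25.8 and 21.1 placed it at the 98.6th percentile of all distal regions and at the 83.3rd among the highest distal regions per gene. It was higher than the start in replicate 1 and lower in replicate 2. The next distal regions were 79.6 kb downstream, in an intron of the noncoding 2610307P16Rik (11.6), and 26.2 kb downstream (10.1). At Sox11, the other SoxC gene, 12 regions were shared and the highest of the 11 distal ones, 50.8 kb downstream (chr12:27291541-27292096), reached 9.51 and 8.55. A region within the Sox11 UTR, 2.99 kb downstream of the start, had a mean of 6.83.

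Sox9 lies in a gene desert, with 457 kb to the nearest protein-coding gene on its downstream side, Slc39a11, and 1705 kb to Kcnj2 on its upstream side. Its 12 shared regions were thus 1 at the start and 11 distal. The highest distal one was 68.5 kb downstream (chr11:112850280-112851088), at 13.0 and 12.3, in no annotated gene. It belonged to a series of regions downstream of the gene at 29.1 kb (7.40), 58.5 kb (6.95) and 62.4 kb (7.21). On the other side a region 92.0 kb upstream, in an intron of BC006965, reached 8.89. At Sox8 the distal regions were weak, the highest of 10 reaching 7.06 and 5.78 (chr17:25480814-25481315, 89.6 kb downstream), and the highest region of the locus (28.9) was at the start of Lmf1, a lipase maturation factor gene. That distal region lay 6.77 kb from a start of Tekt4, nearer than to Sox8.

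At Sox10, 20 regions were shared, of which 11 were at starts of neighbours and 9 distal. The highest was at the start of Ankrd54 (40.6). The highest distal regions lay downstream, 67.4 kb away between genes (12.2 and 10.1) and 107 kb away over a coding exon of Ankrd54 (10.9 and 10.6). A single distal region was upstream of Sox10, 59.7 kb away (9.78 and 6.54), within the noncoding Gm10863. The count of regions in the Sox10 locus, among the highest of the 10, was therefore made up away from the gene itself.

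The SoxB1 loci differed from each other. Sox2 had 11 distal regions and no other protein-coding gene, and the highest, 13.9 kb downstream within an intron of Sox2ot (chr3:34663763-34665054, 1292 bp), reached 9.51 and 8.80. Its replicate 1 summit lay 3 bp from the start of the noncoding Gm42693. The next were 41.9 kb downstream (7.22) and 7.77 kb upstream (6.26). Sox1 had 4 shared regions in all, the fewest of the 10 genes, although its locus also held no other protein-coding gene. The highest was 73.0 kb upstream (chr8:12322054-12322514) at 8.15 and 7.29. It lay nearer to starts of other genes, 2.77 kb from Gm33175 and 43.4 kb from the protein-coding A230072I06Rik.

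Per 100 kb, the loci ranged from 1.95 shared regions at Sox1 to 10.4 at Sox18, with a median of 6.11 against 5.45 over all protein-coding genes. The median percentile of the 10 loci was 56.3, but 48.6 with peaks at q of at most 1e-10 and 49.5 with flanks of 200 kb. The highest densities belonged to Sox18 (10.4), Sox4 (9.77) and Sox10 (9.51). The same density came from different sources, since the Sox18 locus held 10 other protein-coding genes and the Sox10 locus 9, while the Sox4 locus held none. Counting distal regions only, Sox4 was at the 94.9th percentile of all genes, followed by Sox2 (76.2), Sox9 (75.2), Sox7 (74.8), Sox11 (74.5), Sox8 (70.7), Sox18 (66.3), Sox10 (63.7), Sox17 (52.4) and Sox1 (26.2). The median over the 10 was 5.08 distal regions per 100 kb, against 3.24 over all genes and an upper quartile of 5.33. Across the 21755 genes, Spearman's rho between density and the number of other protein-coding genes in the locus was 0.30 for all regions and near 0 for distal regions, as a description over genes whose loci overlap.

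**Figure D5:**
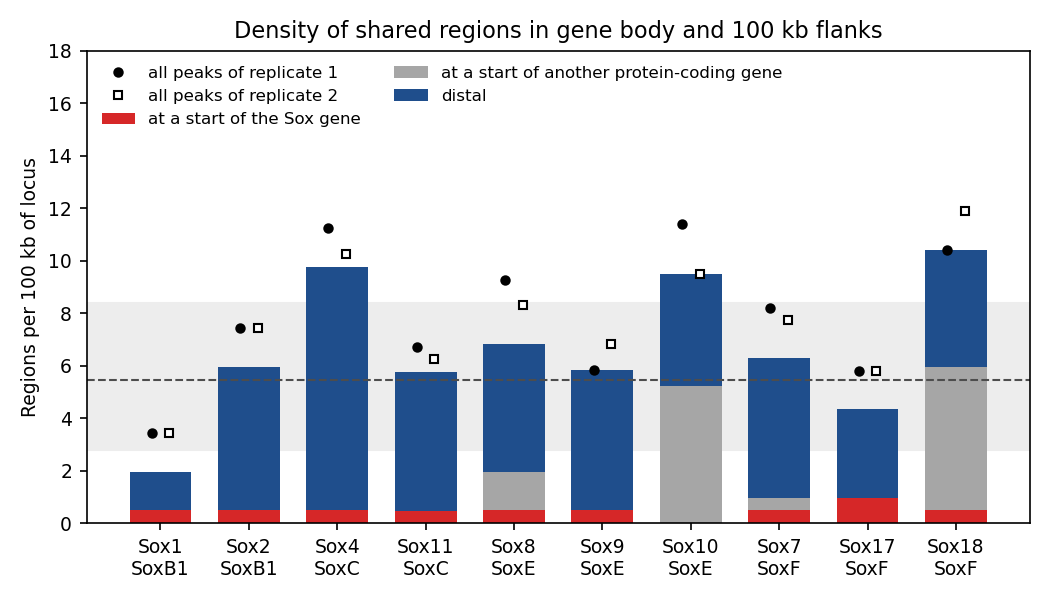
Shared regions per 100 kb in each SOX locus, stacked as regions at the gene's own starts (red), at starts of other protein-coding genes (grey) and distal (blue), with the density of all peaks of each replicate as points. The dashed line and grey band are the median (5.45) and quartiles (2.78 to 8.39) over 21755 protein-coding genes, and only the Sox1 bar lies below the band.

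By group, the density was 3.93 per 100 kb in SoxB1, 7.75 in SoxC, 7.41 in SoxE and 6.99 in SoxF. Each replicate alone gave 5.41 and 5.41 in SoxB1, 8.96 and 8.23 in SoxC, 8.86 and 8.22 in SoxE, and 8.13 and 8.45 in SoxF, so SoxB1 was lowest in both and the other 3 were not consistently ordered. Without regions at protein-coding starts the values were 3.44, 7.26, 4.83 and 4.39. The SoxC value came mostly from Sox4 (9.28), since Sox11 (5.28) lay just below Sox2 (5.44), Sox9 (5.35) and Sox7 (5.31). Within the groups, single loci ranged, with all regions counted, from 1.95 to 5.94 in SoxB1, 5.76 to 9.77 in SoxC, 5.84 to 9.51 in SoxE and 4.36 to 10.4 in SoxF. With flanks of 50 kb SoxB1 was no longer lowest, at 6.28 against 5.61 in SoxE. These groups hold 2 or 3 genes each and are described without a test.

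The searched motifs were found in the distal regions of the SOX loci about as often as in distal regions elsewhere. With 100 bases on each side of the summit, a SOX motif occurred in 40 of the 101 regions (39.6%, exact binomial 95% interval 30.0% to 49.8%), against 37.0% of all distal regions. GATA motifs occurred in 36 (35.6%, against 31.0%), the ETS motif in 34 (33.7%, against 30.0%) and the TEAD motif in 22 (21.8%, against 16.4%). The T-box motif occurred in 7 (6.93%, against 8.98%), the CTCF core in 2 (1.98%, against 2.78%) and the MEF2 motif in 1 (0.99%, against 1.58%). The windows of 3 of the 101 regions repeat that of a neighbour, since a single replicate 1 peak was split between separate replicate 2 peaks. Over the 98 distinct windows a SOX motif occurred in 39 (39.8%, 30.0% to 50.2%). The interval of each of the 7 shares held the share of all distal regions at this window. These intervals take the regions as independent, although 19 of the 101 came from the Sox4 locus, so they are a description and not a test. With 150 bases on each side, the SOX share turned from above to below that of all distal regions (47.5% against 50.7%), and the interval of the TEAD share (31.7%, 22.8% to 41.7%) no longer held the 22.6% of all distal regions. By gene, a SOX motif was held by 7 of the 11 distal regions of Sox2, 4 of 7 at Sox17, 4 of 9 at Sox18, 8 of 19 at Sox4, 4 of 10 at Sox8, 4 of 11 at Sox9, 3 of 9 at Sox10, 3 of 11 at both Sox11 and Sox7, and none of the 3 at Sox1. A match describes letters in a window and not a bound site.

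Genes known to act downstream of the groups were read in the same way at their starts. For SoxF, all 6 had a start region, among them Cdh5, the endothelial cadherin (11.4 and 8.55), Cldn5, a tight junction gene (9.24 and 7.29), Dll4, a Notch ligand (9.51 and 8.04), and Notch1 (16.6 and 14.6). For SoxE, 8 of the 9 read here did, from Mitf, the melanocyte factor (33.7 on average), to Col2a1, the cartilage collagen (6.55), and Dct, a melanin gene (4.20). The SoxE target without one was Matn1. For SoxC, Tubb3 and Tead2 did and Dcx did not. For SoxB1, 3 of 5 did (Nes 8.51, Utf1 7.29 and Fgf4 4.30), and the pluripotency genes Nanog and Pou5f1 had none. Each of these counts is to be read beside the 68.1% of all genes.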

How the data were processed

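Hearts of wildtype FVB embryos were profiled by single-end ATAC-seq in 2 biological replicates, each a pair of hearts. The authors trimmed the reads with Trim Galore 0.6.6, aligned them to GRCm38/mm10 with Bowtie2 2.4.2, removed duplicates and low-quality reads with SAMtools 1.12, and called peaks per replicate with MACS2 at a relaxed p-value limit and without a local background. The deposited files give each peak a fold enrichment ratio, a −log10 p-value and −log10 q-value, and a score, which was not used. Steps in the deposited ratio gave whole reads at the summit, within 0.02 of a read, for 100% of peaks, on a background pileup of 2.68 and 2.98 reads, and exact Poisson intervals were taken from these pileups. Intervals cover counting error only.

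Shared regions, with the highest peak of each replicate as their value, were matched to GENCODE M21, whose build is that of the peaks, and sequence was read from RefSeq GRCm38.p6. Percentiles are over protein-coding genes on chromosomes 1 to 19 and X, or over distal regions. The overlap code was checked on simulated peaks. Python 3.11.15, pandas 2.3.3, scipy 1.17.1 and pysam 0.24.0 were used. The unit is the replicate, 2 per group, so no test was made and no p-value is given. Alternatives covered peak limits, overlap, windows, flanks, units and leaving out each replicate.

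The 10 members and all gene lists and motifs were chosen with earlier results of these data known. Named in each locus are every member at each start, the highest distal region, genes that these overlap, and the neighbour whose start holds the highest region. Some genes of these lists are not reported here. The further distal regions given by value were picked after their values were seen.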

Additional observations from a re-analysis of the deposited data

How the results depend on the processing

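The number of members with a shared region at a start was 9 under every peak limit, overlap, window and single replicate tried, and the lowest SoxC start stayed above the highest start of the other groups under each of these peak limits, the overlap and each single replicate (other windows were not run for it). The median start fold enrichment (12.4) became 2.32 when divided by the median of each list and 46.5 as a pileup in reads, which are changes of unit. With the spread of all start regions in place of the highest per gene, a choice added after seeing the data, separable neighbouring pairs went from 4 to 0. Densities moved with the lists, in the order median, SoxB1, SoxC, SoxE and SoxF. Peaks at p of at most 0.00001 gave 5.65, 3.69, 6.54, 7.09 and 6.18, where SoxC was below SoxE. Those at q of at most 1e-10 gave 2.66, 1.47, 2.42, 3.71 and 3.74, where SoxC was below SoxE and SoxF. A reciprocal overlap of 50% gave 5.85, 3.93, 6.78, 6.61 and 6.01. Flanks of 50 kb gave 6.62, 6.28, 9.85, 5.61 and 7.61, with SoxE below SoxB1, and flanks of 200 kb gave 5.44, 3.47, 5.78, 6.80 and 6.34, with SoxC below SoxE and SoxF. Without regions at protein-coding starts they were 5.08, 3.44, 7.26, 4.83 and 4.39. In base pairs per kb they were 35.6, 22.8, 44.1, 40.7 and 46.7, with SoxF highest. Leaving out a replicate gave 7.58 to 7.82 for the median, 5.41 for SoxB1, 8.23 to 8.96 for SoxC, 8.22 to 8.86 for SoxE and 8.13 to 8.45 for SoxF. The median percentile (56.3) was 55.3, 48.6 and 62.8 under the p, q and overlap settings, 59.0 and 49.5 with flanks of 50 and 200 kb, 72.6 without start regions, 51.5 in base pairs and 61.6 to 62.5 without a replicate. With 150 bases on each side of the summit the ETS and TEAD shares were 46.5% and 31.7%, in windows that are longer by construction (40.6% and 22.6% of all distal regions). For the other changes the cause was not tested.

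No paired analysis was possible because there is 1 group and hence nothing to pair across. Peaks under 9 reads are not listed, which limits what can be said of Sox10.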

Other observations

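Of the other SOX genes on chromosomes 1 to 19 and X, 8 of 9 had a shared region at a start, beside 68.1% of all protein-coding genes on these chromosomes. Sry, on chromosome Y, was not counted. Sox12, the remaining SoxC gene, had the highest start of any SOX gene, at fold enrichment 42.9 in replicate 1 and 40.5 in replicate 2, in a region 4322 bp long. With it, the 3 SoxC genes had the 3 highest starts among the 19 SOX genes read, a ranking made after the values were seen. Sox3, the remaining SoxB1 gene, reached 13.6 and 10.1 in a region of 2633 bp, close to Sox2 in height and length. Sox21, a SoxB2 gene of neural progenitors, reached 13.6 and 13.1 in a region of 3364 bp, while Sox14, its SoxB2 partner, had none.

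Among SoxD genes, which encode long forms without a transactivation domain, Sox5 reached 15.8 and 12.6, Sox6 13.0 and 11.6, and Sox13 7.61 and 8.80. Sox30 reached 13.9 and 12.1. Sox15 had the lowest start of those with one, at 5.70 and 4.27 in a region of 365 bp.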
